A study of Mus musculus with 8 samples.

Results

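The genes that code for the ligands of the epidermal growth factor (EGF) receptor and for the ErbB receptors were followed in mouse lung after toxin injury. Every non-control probe whose array gene name was one of 10 symbols was taken: the ligands Areg, Ereg, Hbegf, Tgfa, Egf, Btc and Epgn, and the receptors Egfr, Erbb2 and Erbb3. They were read by 20 of the 56605 probes, and are 10 of the 37074 gene names on the array. All 10 genes passed the filter on dim probes through 18 probes, as did 25830 genes of the series. Ereg passed through the LL group alone and Epgn through the WL group alone.

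The EGF family ligands are made as membrane proteins whose outer part is cut loose by metalloproteases of the ADAM family. The freed ligand pairs ErbB receptors, which are tyrosine kinases that signal through Ras and the MAP kinase ERK. In the lung this family is known for growth and repair of the epithelium, and the membrane form of the Hbegf protein of sensitive species is the receptor that diphtheria toxin uses to enter cells.

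Whole-lung RNA of bone marrow chimeras was measured on one-colour Agilent arrays, 1 array for each of 8 male mice aged 22 weeks, taken 72 hours after diphtheria toxin (DT). In LysM-DTR mice the lysozyme M promoter, active in macrophages, monocytes, neutrophils and alveolar type 2 cells, directs the toxin receptor. The LL mice had LysM-DTR marrow in LysM-DTR recipients, the WL mice wild-type marrow in LysM-DTR recipients, the LW mice LysM-DTR marrow in wild-type recipients, and the WW mice were wild type on both sides, with 2 mice in each group. All groups received toxin and a marrow graft, so no lung without either serves as a comparison here. The share of recipient blood cells left after grafting is not given in the sources used here.

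All 8 arrays were on 1 slide, where LL and WL filled one column and LW and WW the other, so recipient genotype and slide column cannot be told apart. The 75th percentile of the signal lay between 208.6 and 324.4 intensity units, and 66.3 to 72.3% of spots were well above background. The WL mice stood apart from each other. Over 25830 genes, WL replicate 1 correlated at 0.99 with the averaged lungs of wild-type recipients (LW and WW) and at 0.96 with those of LL, whereas WL replicate 2 correlated at 0.96 with LW and WW and at 0.97 with LL. The WL pair differed by at least 1 log2 unit in 17.5% of genes, against 3.52% for the LL pair, 2.89% for LW and 2.59% for WW. Because all groups share one estimate of spread, this pair widens the errors of genes in which it lies far apart, in every comparison. The results are therefore given with and without the WL arrays. Markers of alveolar type 2, type 1, club, ciliated and endothelial cells were well above background on all 8 arrays.

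Values are log2 signal minus the 75th percentile of the array, called the relative signal. They compare arrays for 1 probe and do not rank genes against each other. Genes were tested with limma over all 25830 genes, and a gene was called at a Benjamini-Hochberg adjusted p under 0.05. In whole lung, fewer cells of a type and less RNA per cell cannot be told apart.

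Areg, Ereg and Hbegf were the ligands with the largest differences: all were higher in both LL lungs than in any LW or WW lung, and in WL they were high in replicate 2. The other 7 genes had differences between LL and WW from -0.40 (Epgn) to 0.61 (Egfr), none of them called. With all 8 arrays limma called 0 of the 10 genes in LL against WW, where 3.13% of all genes were called. At an unadjusted p under 0.05 there were 3, all higher (Areg, Ereg and Hbegf), where 24.8% of all genes passed. Without the WL arrays the same 3 were called, all higher, where 32.1% of all genes were called and 17.3% were called higher. A share of 3 in 10 lies near that background. Ereg passed the filter only through the group where it is high, which favours a difference, so it adds no support. The median difference of the 10 genes was 0.01, against 0.03 for all genes.

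**Figure D1:**
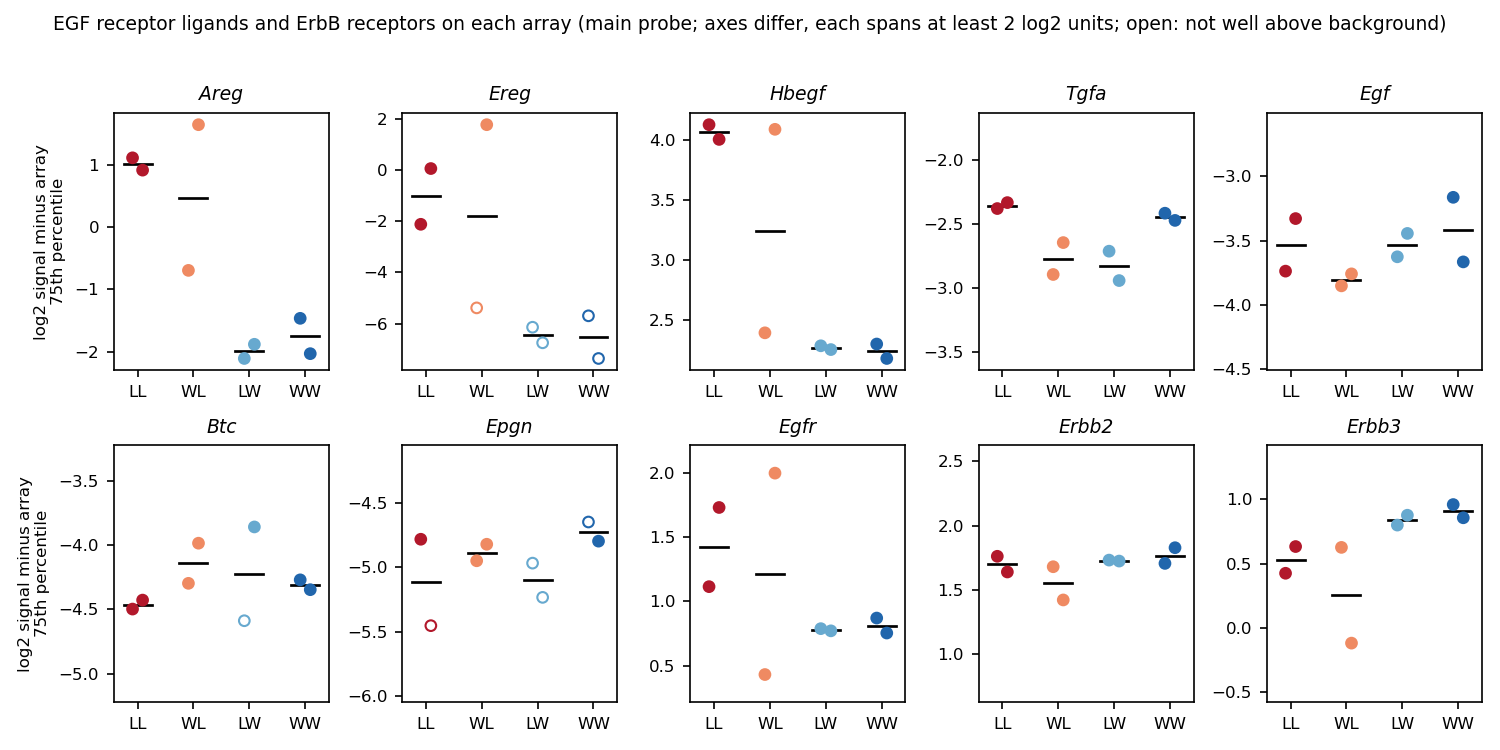
Relative signal (log2 signal minus the 75th percentile of the array) of the main probe of each of the 10 genes, 1 point per mouse, with the mean of each group as a bar (n = 2). Open points were not well above background. Areg, Ereg and Hbegf are high in both LL mice and in WL replicate 2, and low in LW and WW.

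The plot of relative signal by array shows each gene on its own axis, which spans at least 2 log2 units. The WL points of Areg, Ereg, Hbegf and Egfr lie far apart, with replicate 2 at or above the LL points.

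Areg codes for amphiregulin, a ligand that binds the EGF receptor. Its probe lies at chr5:91570090-91570149 of mm9, in the array annotation, which gives the transcript and not the exon or UTR. Areg had a relative signal of 1.11 and 0.91 in LL lungs, -0.70 and 1.64 in WL lungs, -2.11 and -1.88 in LW lungs, and -1.47 and -2.03 in WW lungs. Every lung of a LysM-DTR recipient was above every lung of a wild-type recipient. The mean was 1.01 ± 0.14 in LL and -1.75 ± 0.40 in WW (SD, n = 2 each), a log2 difference of 2.76 (SE 0.70) or 6.77-fold. Its adjusted p in limma was 0.0943 with all arrays and 0.00292 without the WL arrays (SE 0.22).

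The probe that gives these values is shown, with the promoters of Areg and of Epgn, another ligand gene of chromosome 5. Ereg lies between them and had no promoter entry. Epgn was above background on only 4 arrays, so its response is weakly measured. Whether these promoters bear on the values was not tested. Promoter windows run from 250 bases before to 50 bases after the start site and come from RefSeq on GRCm38.p6. That of Areg is chr5:91139349-91139648 and that of Epgn is chr5:91027267-91027566, both on the plus strand. Capitals mark matches to the cAMP response element TGACGTCA and to the TATA box TATAAA.
Areg probe, mm9: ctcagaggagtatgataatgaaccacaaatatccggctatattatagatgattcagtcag
Areg promoter: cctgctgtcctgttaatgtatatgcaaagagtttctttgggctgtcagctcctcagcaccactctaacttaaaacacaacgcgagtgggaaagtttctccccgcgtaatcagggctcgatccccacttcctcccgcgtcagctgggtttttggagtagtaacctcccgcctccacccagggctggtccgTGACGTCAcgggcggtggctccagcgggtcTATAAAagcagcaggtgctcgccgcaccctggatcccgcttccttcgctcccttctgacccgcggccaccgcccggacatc
Epgn promoter: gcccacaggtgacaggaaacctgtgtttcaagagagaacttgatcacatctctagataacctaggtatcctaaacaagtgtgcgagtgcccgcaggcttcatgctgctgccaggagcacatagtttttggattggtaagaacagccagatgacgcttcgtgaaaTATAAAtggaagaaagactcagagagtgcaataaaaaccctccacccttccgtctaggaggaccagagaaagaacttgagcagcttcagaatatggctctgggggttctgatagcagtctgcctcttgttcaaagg

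These 2 motifs and the AP-1 motif TGANTCA were searched on both strands, and no matches overlapped. The cAMP response element was found in the Areg window at position -61 from the start site, and 1.79% of 32851 RefSeq promoter windows of this length hold it. The TATA box was found at -31 in the Areg window and at -86 in the Epgn window, and 13.6% of all windows hold it. The AP-1 motif, present in 7.81% of windows, had no match in the windows of Areg, Tgfa, Egf, Btc, Epgn, Egfr or Erbb2, the 7 of 10 genes with an entry. Ereg, Hbegf and Erbb3 were the others.

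Ereg codes for epiregulin, a ligand of the EGF receptor and of ErbB4. Its probe at chr5:91522553-91522612 of mm9 was well above background on 3 arrays: both LL and WL replicate 2. Ereg had a relative signal of -2.12 and 0.05 in LL lungs, -5.38 and 1.76 in WL lungs, -6.14 and -6.75 in LW lungs, and -5.69 and -7.36 in WW lungs. The 2 LL lungs thus differed from each other by more than 2 log2 units, while both lay above every LW and WW lung. Since neither WW array was above background, the fitted fold is no measured one. With the lowest signals that pass as above background in place of the WW values, the LL mean was 14.2-fold higher. This is no strict bound, as some probes that did not pass lay above the lowest passing signal. It also rests on the mean of 2 unlike LL lungs. Its adjusted p in limma was 0.193 with all arrays and 0.0111 without the WL arrays. These p-values rest on values below background in WW and on a filter that Ereg passed through LL alone, and are no independent support. With the lowest passing signals in place of the LW values, the LL mean of Ereg was 11.6-fold higher, with the same limits. In WL only replicate 2 measured Ereg, so no such value is given there.

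Hbegf codes for heparin-binding EGF-like growth factor, and its main probe lies at chr18:36664738-36664797 of mm9. Hbegf had a relative signal of 4.12 and 4.002 in LL lungs, 2.39 and 4.09 in WL lungs, 2.28 and 2.25 in LW lungs, and 2.30 and 2.18 in WW lungs. Both LL lungs and WL replicate 2 were about alike, and the other 5 lungs were low. The mean was 4.06 ± 0.09 in LL and 2.24 ± 0.09 in WW (SD, n = 2 each), a log2 difference of 1.82 (SE 0.50) or 3.54-fold. Its adjusted p in limma was 0.108 with all arrays and 0.00178 without the WL arrays (SE 0.10). A second Hbegf probe, at chr18:36672393-36672452, passed the filter through LL alone, was above background on 4 arrays (both LL, 1 WL, 1 WW) and had -4.03 and -4.03 in LL lungs, -5.48 and -5.05 in WL lungs, -6.77 and -5.38 in LW lungs, and -6.23 and -4.79 in WW lungs. Since the other groups were mostly below background, this probe gives no repeat of the main one, and its fitted difference of LL from WW was not called, with an adjusted p over all probes in limma of 0.194, or 0.135 without the WL arrays.

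LW lungs, whose LysM-DTR marrow carries the transgene, had Hbegf at the level of WW lungs, with a log2 difference of 0.03 (95% interval -1.18 to 1.24). Whether the probe also reads the transgene was not tested.

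Tgfa codes for transforming growth factor alpha, a ligand of the EGF receptor. Its main probe (chr6:86159850-86159908 of mm9) had -2.38 and -2.33 in LL lungs, -2.89 and -2.65 in WL lungs, -2.71 and -2.94 in LW lungs, and -2.42 and -2.47 in WW lungs. The groups with the same genotype on both sides were the higher ones, and the mixed chimeras the lower ones, without overlap. The log2 difference of LL from WW was 0.09 (95% interval -0.30 to 0.47), and that of LW from WW was -0.38 (SE 0.16, unadjusted p 0.0504 in limma), which was not called. LL was above LW by 0.47, with an adjusted p in limma of 0.148 with all arrays and 0.0325 without the WL arrays. The interaction of marrow and recipient was 0.79 (SE 0.22) with an unadjusted p of 0.0113 and an adjusted p of 0.330 in limma. A second Tgfa probe (chr6:86224838-86224897) had -4.16 and -3.67 in LL lungs, -4.52 and -3.87 in WL lungs, -3.90 and -4.39 in LW lungs, and -3.31 and -4.09 in WW lungs. Its group means kept the mixed chimeras below LL and WW, but all groups overlapped, and the interaction was 0.72 (SE 0.52, unadjusted p 0.213 in limma). On this probe the log2 difference of LL from WW had the opposite sign, at -0.22. The probes are annotated to different transcript records, the second to the RefSeq one, so the pattern without overlap rests on the main probe alone.

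Egf, the name-giving ligand, had -3.74 and -3.33 in LL lungs, -3.85 and -3.76 in WL lungs, -3.63 and -3.44 in LW lungs, and -3.16 and -3.67 in WW lungs at chr3:129380577-129380636 of mm9. The LL and WW lungs overlapped, and the log2 difference was -0.12 (95% interval -0.67 to 0.44). A second Egf probe (chr3:129402544-129402603) was above background on 5 arrays and had a difference of LL from WW of the opposite sign, 0.24 (SE 0.21, unadjusted p 0.285 in limma), with LL and WW overlapping. The last probe was above background on no array.

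Btc codes for betacellulin, which binds the EGF receptor and ErbB4. Its main probe (chr5:91787139-91787198 of mm9) had -4.50 and -4.43 in LL lungs, -4.30 and -3.99 in WL lungs, -4.59 and -3.86 in LW lungs, and -4.27 and -4.35 in WW lungs. The LL lungs were the lower pair against WW, with a log2 difference of -0.15 (95% interval -0.78 to 0.47).

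Epgn codes for epigen, another ligand of the EGF receptor. Its probe (chr5:91461324-91461383 of mm9) was above background on 4 arrays, and had -4.78 and -5.45 in LL lungs, -4.95 and -4.82 in WL lungs, -4.97 and -5.23 in LW lungs, and -4.65 and -4.80 in WW lungs. These values are near the background and the LL and WW lungs overlapped. The log2 difference was -0.40 (95% interval -0.99 to 0.20).

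Epgn, Ereg, Areg and Btc lie in that order on chromosome 5, with their probes between 91461324 and 91787198 of mm9, a span of 325.9 kb. The inner genes Ereg and Areg were high in LL, and the outer genes Epgn and Btc were not.

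Egfr codes for the EGF receptor itself and was read by 4 probes. The main one (chr11:16813815-16813874 of mm9) had 1.11 and 1.73 in LL lungs, 0.43 and 1.997 in WL lungs, 0.79 and 0.77 in LW lungs, and 0.87 and 0.75 in WW lungs. WL replicate 2 was the highest lung and WL replicate 1 the lowest. The log2 difference of LL from WW was 0.61 (SE 0.50), with an adjusted p in limma of 0.455, or 0.0871 without the WL arrays.

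Of the other Egfr probes, the one at chr11:16812181-16812240 was 0.99 higher in LL than in WW on the log2 scale. The one at chr11:16783545-16783604 was 0.59 higher. Adjusted over all probes without the WL arrays, these had a p in limma of 0.0358 and 0.0457, and with all arrays 0.242 and 0.387. The last, at chr11:16655638-16655697, did not follow: its LL and WW lungs overlapped, with a difference of -0.01. Of these probes the one at chr11:16812181-16812240 shares the transcript record of the main probe, and the others are each annotated to a record of their own. The probes of Egfr therefore differ in whether LL stands above WW.

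**Figure D2:**
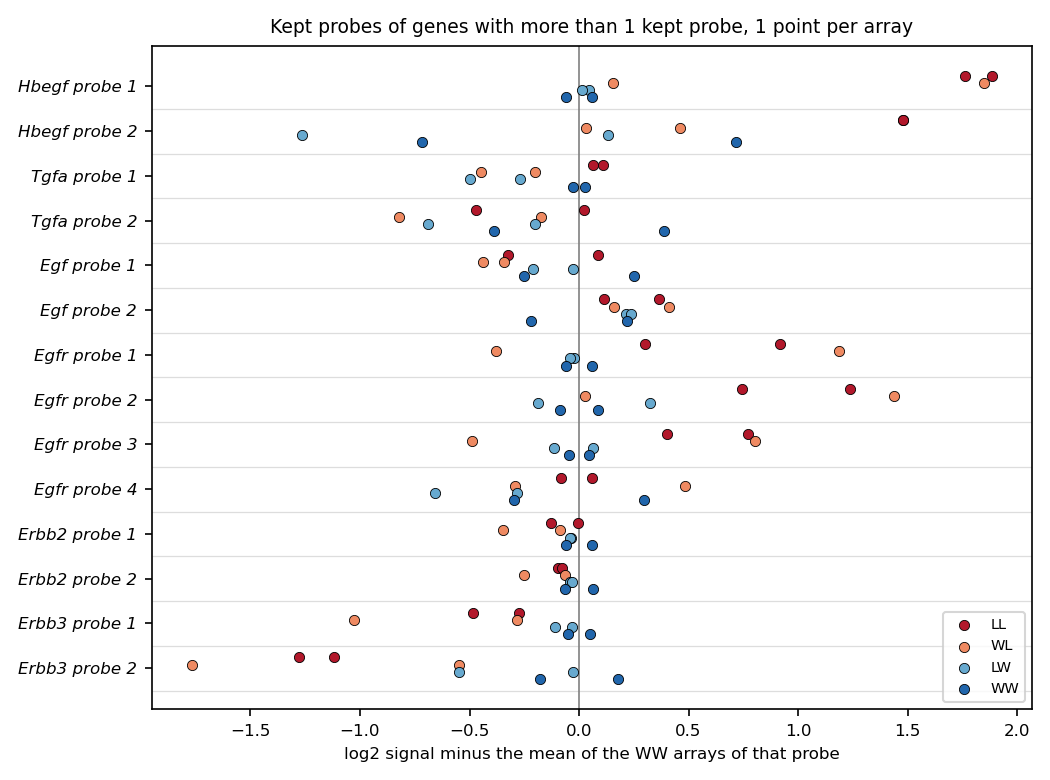
Relative signal of each kept probe minus the mean of its WW arrays (log2, x axis) for the genes read by more than 1 kept probe, 1 point per array and coloured by group. The LL points of Hbegf lie to the right of all WW points for both probes, the second of them mostly below background outside LL, those of Erbb3 to the left for both probes, and those of Egfr to the right for probes 1 to 3.

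The plot of single probes allows the probes of a gene to be compared on one axis. For Erbb3 the second probe showed a larger difference than the first.

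Erbb2 codes for the receptor that has no known ligand and acts as the partner of the others. Its main probe (chr11:98298394-98298453 of mm9) had 1.76 and 1.64 in LL lungs, 1.68 and 1.42 in WL lungs, 1.73 and 1.73 in LW lungs, and 1.71 and 1.83 in WW lungs. These are the closest values of the 10 genes across the 8 lungs, with a range of 0.41 log2 units. The difference of LL from WW was -0.07 (95% interval -0.43 to 0.30), and a second probe gave -0.09.

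Erbb3 codes for the receptor that binds neuregulins and has little kinase activity of its own. Its main probe (chr10:128004749-128004808 of mm9) had 0.42 and 0.63 in LL lungs, 0.63 and -0.12 in WL lungs, 0.80 and 0.88 in LW lungs, and 0.96 and 0.86 in WW lungs. Every lung of a LysM-DTR recipient was below every lung of a wild-type recipient. The log2 difference of LL from WW was -0.38 (SE 0.25), with an adjusted p in limma of 0.375, or 0.0591 without the WL arrays. A second, dimmer probe had -4.56 and -4.72 in LL lungs, -3.99 and -5.21 in WL lungs, -3.99 and -3.47 in LW lungs, and -3.26 and -3.62 in WW lungs. The difference of LL from WW was -1.20 (SE 0.41), with an adjusted p over all probes in limma of 0.157, or 0.0165 without the WL arrays.

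**Figure D3:**
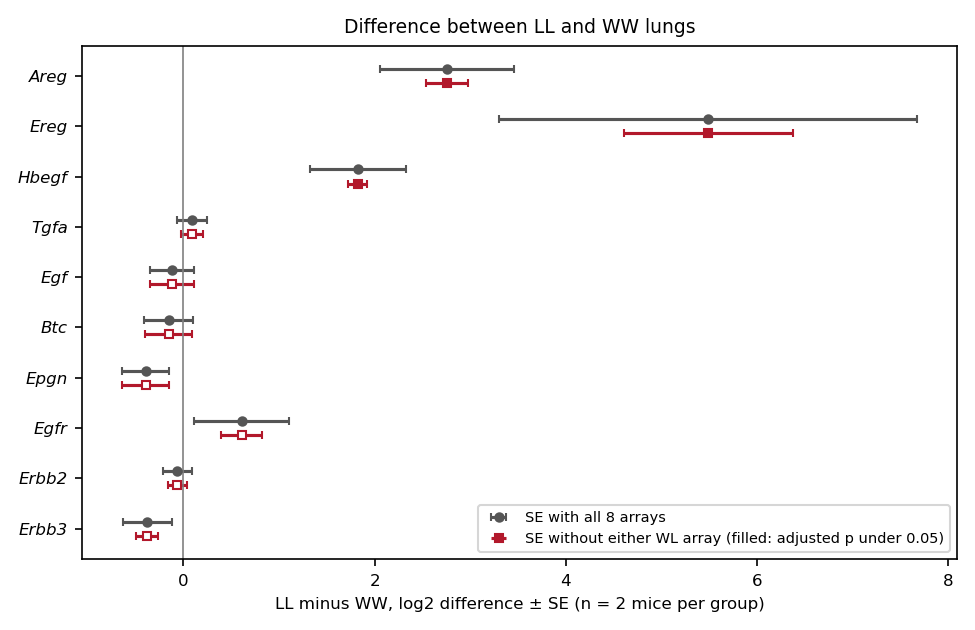
Log2 difference between LL and WW lungs for each gene (x axis), with the SE of the fit on all 8 arrays in grey and of the fit without the WL arrays in red, n = 2 mice per group. Filled red squares had an adjusted p under 0.05 without the WL arrays: Areg, Ereg and Hbegf, at 2.76, 5.49 and 1.82. The Ereg value is a fitted one and no bound, as WW was not above background.

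The plot of differences between LL and WW shows how far the WL arrays widen the errors of Areg, Ereg, Hbegf and Egfr, whose WL pair disagreed, while the errors of Egf, Btc and Epgn hardly move. In the count of groups that do not overlap, 5 genes were higher in LL than in WW (Areg, Ereg, Hbegf, Tgfa and Egfr) and 2 lower (Btc and Erbb3). Among all genes the groups did not overlap in 69.5%, with 37% higher and 32.4% lower, so a count of 7 in 10 is near the background.

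The recipient genotype was compared over both marrows, LL and WL against LW and WW. Limma called 0 of the 10 genes, where 1.27% of all genes were called, and 4 had an unadjusted p under 0.05, where 31.2% of all genes did. The 4 were also those whose groups did not overlap, with Areg, Ereg and Hbegf higher and Erbb3 lower in LysM-DTR recipients, where 17.6% of all genes did not overlap, with 8.72% higher and 8.85% lower. For Ereg this order rests on WL replicate 1, LW and WW arrays that were all below background, so it is no measured difference. Areg was 2.61 higher on the log2 scale (SE 0.49, adjusted p 0.0695 in limma). Hbegf was 1.40 higher (SE 0.35, adjusted p 0.0970), and Erbb3 had a difference of -0.48 (SE 0.18, adjusted p 0.140).

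Wild-type marrow in LysM-DTR recipients, WL against WW, gave 0 called genes of the 10, where 0.00387% of all genes were called. There were 2 with an unadjusted p under 0.05, where 8.18% of all genes passed: Areg, 2.22 higher (adjusted p 0.486 in limma), and Erbb3, at -0.65 (adjusted p 0.486). The WL and WW lungs did not overlap in 8 of the 10 genes, 3 higher and 5 lower, where 42% of all genes did not. For Ereg the order rests on WL replicate 1 and WW arrays that were below background. Epgn passed the filter through WL alone, and its order rests in part on a WW array below background. Neither order is a measured difference. The 2 WL mice were unlike in some of the 10 genes. Against the mean of WW, Areg was 1.05 higher in WL replicate 1 and 3.39 higher in WL replicate 2. Hbegf was 0.15 and 1.85 higher in the same mice, and Egfr was at -0.38 and 1.19, so its sign depended on the mouse. Erbb3 was at -0.28 and -1.03.

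LysM-DTR marrow in wild-type recipients, LW against WW, gave 0 called genes, where 0.0542% of all genes were called, and 0 with an unadjusted p under 0.05, where 2.2% passed. The groups did not overlap in 2 genes, both lower (Tgfa and Epgn), where 33.9% of all genes did not. Epgn was above background on neither LW array, so its order is no measured difference. Without the WL arrays 0 were called, where 0.00774% of all genes were. The fitted differences of the genes above background on at least 1 LW array lay between -0.38 (Tgfa) and 0.09 (Btc). For Areg the difference was -0.25 with a 95% interval of -1.95 to 1.45, so the interval includes differences of more than 1 log2 unit in either direction.

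In LysM-DTR marrow chimeras, LL against LW, limma called 0 of the 10 with all arrays, where 2.8% of all genes were called. There were 4 with an unadjusted p under 0.05 (Areg, Ereg, Hbegf and Tgfa), where 25.7% passed. Without the WL arrays these 4 were called, all higher in LL, where 32.8% of all genes were called and 18.5% called higher. Ereg passed the filter through LL alone and was above background on neither LW array. This selection favours a difference, so Ereg adds no support. For Tgfa the call rests on the main probe, as LL and LW overlapped on the second, with a difference of 0.22. Areg was 3.01 higher, with an adjusted p in limma of 0.0791 with all arrays and 0.00255 without the WL arrays. Hbegf was 1.79 higher, with 0.109 and 0.00174. The LL and LW lungs did not overlap in 6 of the 10 genes, where 71.9% of all genes did not. This comparison and that of LL with WW share the LL arrays.

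In LysM-DTR recipients, LL against WL, limma called 0 of the 10, where 1.72% of all genes were called, and Tgfa alone had an unadjusted p under 0.05 (0.41 higher, adjusted p 0.309), where 14.5% passed. The groups did not overlap in 3 genes, where 37.8% of all genes did not. For Areg, Ereg, Hbegf and Egfr the LL lungs lay between the WL mice or beside the higher one. The interaction of marrow and recipient had 0 called genes, where 0.0619% of all genes were called, and 1, Tgfa, at an unadjusted p under 0.05, where 9.14% passed.

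Across the 8 lungs Areg correlated with Ereg at a Pearson r of 0.95 and with Hbegf at 0.97, and Ereg with Hbegf at 0.94. Egfr correlated with Ereg at 0.92, and Erbb3 with Areg at -0.84 and with Ereg at -0.85. These are descriptions over 8 arrays that fall into a high and a low set and share their scaling, and Ereg was above background on 3 of them.

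By the same measure, over 7883 genes (7884 for Ereg) well above background on all arrays and with a range of at least 1 log2 unit, the genes most like Hbegf were Krt42 (r 0.998), Krt19 (0.997) and Krt85 (0.997), which are keratins. The genes most like Areg were Ergic1 (0.994), Tubb5 (0.992) and Tmem181a (0.992). Those most like Ereg were Lap3 (0.997), Nubp2 (0.996) and Il6 (0.996), the last a cytokine, but 5 of the 8 Ereg values were below background, so their order and these ranks are weakly set. Those most like Egfr were Aldh1a3 (0.979), Sdc4 (0.978) and Xpo4 (0.977). Such likeness was common: 785 genes had an r over 0.95 with Hbegf, 585 with Areg, 1003 with Ereg and 89 with Egfr.

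Some cell markers moved with Areg, Ereg and Hbegf, and others changed in LL alone. The summed linear relative signal of 6 alveolar type 2 markers, all above background on all arrays, was 512.6 and 604.4 in LL lungs, 1230 and 465.9 in WL lungs, 1372 and 1249 in LW lungs, and 1340 and 1452 in WW lungs. The lungs with low type 2 markers, both LL and WL replicate 2, are those with high Areg, Ereg and Hbegf. The brightest markers, Sftpc and Sftpb, weigh most in this sum. Sftpc had 7.41 and 7.83 in LL lungs, against 9.63 and 9.81 in WW lungs. Sftpb moved less, with 7.91 and 8.11 against 8.23 and 8.29. Each of the 6 markers was lower in both LL lungs than in both WW lungs. The sum of 4 mesothelial markers was 76.0 and 74.7 in LL lungs, 21.5 and 48.7 in WL lungs, 26.7 and 22.0 in LW lungs, and 21.6 and 23.6 in WW lungs. That sum is mostly Msln: in WL replicate 2, Upk3b at -0.42 and Lrrn4 at -0.90 lay below both WW lungs. The sum of 5 alveolar macrophage markers was 2.67 and 3.57 in LL lungs, 41.8 and 17.6 in WL lungs, 31.8 and 23.7 in LW lungs, and 28.3 and 29.2 in WW lungs. That of 5 monocyte and macrophage markers was 12.3 and 10.1 in LL lungs, against 28.5 to 40.6 in the other 6. Neutrophil markers ran from 224.7 to 380.6 in LL lungs and from 270.6 to 417.4 in WW lungs, which overlapped, but single markers went opposite ways: Ly6g had 3.19 and 3.47 in LL lungs, against 1.91 and 1.61 in WW lungs, and Cxcr2 had -3.72 and -2.93 in LL lungs, against -0.63 and 0.57 in WW lungs. The sum of 3 club cell markers was 945.2 and 960.1 in LL lungs, 1231 and 654.7 in WL lungs, and 1277 to 1431 in LW and WW lungs. The sum of 3 B cell markers was 1.47 and 1.22 in LL lungs, 11.8 and 2.26 in WL lungs, and 9.50 to 16.04 in LW and WW lungs. In LL the platelet sum was lower, at 0.78 and 0.62, against 7.79 to 17.9 in the other 6 lungs. The sum of 5 alveolar type 1 markers ran from 644.6 to 648.9 in LL lungs, against 358.2 to 468.0 in the other 6. Of these markers Rtkn2 alone went the other way, with 3.69 and 2.94 in LL lungs, against 4.03 and 3.99 in WW lungs. The fibroblast sum was 81.3 and 88.5 in LL lungs, and 61.2 and 75.3 in WL lungs. It was 59.6 and 60.4 in LW lungs, and 54.7 and 46.6 in WW lungs. WL replicate 2 thus lay between the LL lungs and the remaining ones in this sum. The part of these cell types in the results was not tested.

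Other genes of the pathway were taken from a list of 63, of which 62 were tested and Nrg3 was not kept. The list was chosen with earlier results of these data known, so its counts only describe these lungs. In LL against WW limma called 1 higher, Timp3, and 0 lower with all arrays, where 3.13% of all genes were called. Without the WL arrays it called 29 higher and 4 lower, where 32.1% of all genes were called and 17.3% were called higher. With all arrays 21 had an unadjusted p under 0.05, where 24.8% of all genes did, and the median difference was 0.38, against 0.03 for all genes.

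Among the other family members, 4 of 5 were tested and 0 were called, or 1 higher and 1 lower without the WL arrays, where 32.1% of all genes were called. Nrg1, which codes for neuregulin, a ligand of ErbB3 and ErbB4, had 2.44 and 2.34 in LL lungs, -0.02 and 2.50 in WL lungs, -0.03 and 0.17 in LW lungs, and 0.26 and 0.26 in WW lungs. It was thus high in the same 3 lungs as Hbegf. It was 2.13 higher in LL than in WW, with an adjusted p in limma of 0.155 with all arrays and 0.00171 without the WL arrays. Nrg4, another neuregulin gene, chosen after its values were seen, went the other way, with -3.80 and -3.60 in LL lungs, -2.24 and -4.06 in WL lungs, -2.78 and -2.47 in LW lungs, and -2.72 and -2.94 in WW lungs. Its difference of LL from WW was -0.87, with an adjusted p in limma of 0.349 with all arrays and 0.0153 without the WL arrays. Erbb4, the receptor of neuregulins, had a difference of -0.29 (adjusted p 0.319).

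Of 5 genes for ligand release, all were above 0 in LL against WW, and 1 was called, where 3.13% of all genes were called. Timp3, an inhibitor of metalloproteases that also blocks ADAM17, had 6.87 and 6.83 in LL lungs, 5.55 and 5.63 in WL lungs, 5.27 and 5.51 in LW lungs, and 5.61 and 5.56 in WW lungs. It was high in LL alone, unlike Areg, Ereg and Hbegf, which were high in WL replicate 2 too. It was 1.27 higher in LL than in WW (SE 0.14, adjusted p 0.0157 in limma), and the call is lost without any 1 of the LL or WW arrays, at 0.0812 to 0.118, and with the mean of its probes, at 0.0507. It was 1.46 higher in LL than in LW (adjusted p 0.0139) and 1.26 higher than in WL (adjusted p 0.0185). The recipient genotype averaged over both marrows gave 0.73 (adjusted p 0.0380), while WL and WW overlapped. These 3 calls were lost when any 1 LL, LW or WW array was left out. Over all alternatives, 6 of 19 ended the call in LL against LW, 8 of 18 in LL against WL and 10 of 17 for the recipient genotype. Adam17, the protease that frees several of the ligands, was 0.38 higher in LL than in WW, with an adjusted p of 0.161 with all arrays and 0.0419 without the WL arrays, and with the mean of its probes the difference was -0.02.

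Among 18 adaptors and transducers, 0 were called in LL against WW, where 3.13% of all genes were called, and 10 lay above 0. Without the WL arrays 7 were called higher and 2 lower, where 32.1% of all genes were called. Of 17 genes for receptor turnover and feedback inhibition, 0 were called in LL against WW, with a median difference of 0.10. Without the WL arrays 3 of these were called higher and 0 lower, against the same 32.1% of all genes.

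Among 18 transcripts commonly raised by ERK signalling, 0 were called in LL against WW with all arrays, 9 had an unadjusted p under 0.05, where 24.8% of all genes did, and 16 lay above 0. Their median difference was 1.18, against 0.03 for all genes. Without the WL arrays 14 were called higher and 1 lower, where 17.3% of all genes were called higher and 32.1% either way. The list was chosen with earlier results of these data known, so these counts are no independent support. As examples chosen after their values were seen, Egr1 had 5.52 and 4.58 in LL lungs, 2.71 and 5.68 in WL lungs, 2.35 and 2.29 in LW lungs, and 2.48 and 1.73 in WW lungs. Myc had -0.34 and 0.53 in LL lungs, -2.23 and 1.51 in WL lungs, -2.72 and -2.39 in LW lungs, and -2.36 and -2.28 in WW lungs. Both were high in the lungs that had high Areg. Fosl1, also chosen in this way, was above background on 3 arrays, both LL and WL replicate 2. Etv5, chosen likewise, went the other way, with 2.30 and 2.32 in LL lungs, 4.56 and 2.21 in WL lungs, 4.84 and 4.76 in LW lungs, and 4.84 and 4.86 in WW lungs.

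In the other comparisons few pathway genes were called. Timp3 was called in LL against LW and in LL against WL. WL against WW, LW against WW and the interaction had 0, where 0.00387%, 0.0542% and 0.0619% of all genes were called. They had 2, 0 and 3 at an unadjusted p under 0.05 in limma, where 8.18%, 2.2% and 9.14% of all genes passed. The smallest p in WL against WW belonged to Ccnd1 (0.53 higher) and Lrig2 (-0.57), neither of them called. In LW against WW, Lrig1 was at 0.31 and was not called.

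**Figure D4:**
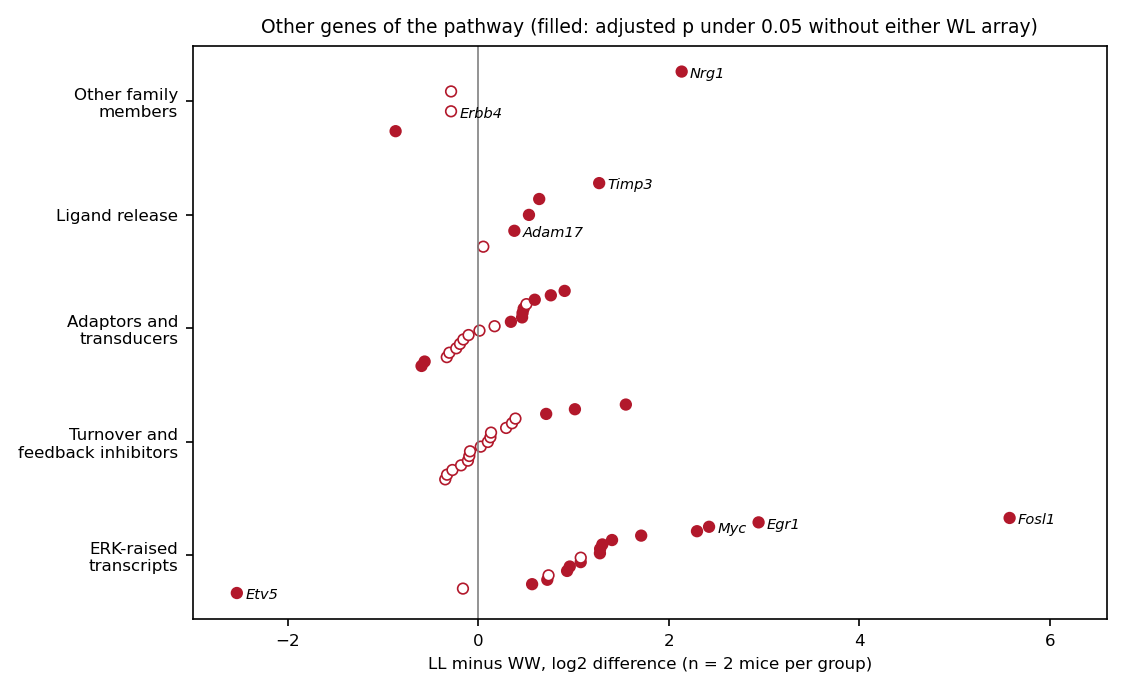
Log2 difference between LL and WW (x axis) for 62 other genes of the pathway, grouped by role, 1 point per gene and n = 2 mice per group. Filled points had an adjusted p under 0.05 without the WL arrays. Of 18 ERK-raised transcripts 16 lie above 0, with Fosl1, a fitted value and no bound, farthest to the right, and Etv5 is the lowest.

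The plot of the pathway by role shows adaptors and feedback inhibitors on both sides of 0, while the genes of ligand release lie above it.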

How the data were processed

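RNA of 8 whole lungs, 1 mouse each, was measured after Cy3 labelling on one-colour arrays. The deposited array files hold intensity values read, per the submitters' processing notes, by Agilent Feature Extraction 11.5.1.1, with background subtracted within the array, per the file headers. The deposited series table holds log2 values that, for at least 99.95% of probes, differ from the log2 signal of the array files by a constant per array within 0.01, and it was used as an alternative. The authors' steps beyond these are not given in the sources used here.

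The processed signal of the 59305 non-control spots was averaged per probe, leaving out 0 to 4 non-uniform spots per array, and taken to log2. Each array's 75th percentile was subtracted. A probe was kept if at least 1 group had it well above background in both mice (39602 of 56605 probes). A gene was represented by its kept probe with the highest mean, its main probe. No spot was saturated, and with 2 mice per group their number limits the precision. Positions of probes were taken from the mm9 annotation in the array files.

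Groups were fitted with limma 3.58.1 in R 4.3.3 as 4 means over 8 arrays (4 residual and 2.19 prior degrees of freedom), with Benjamini-Hochberg adjustment over all genes. The test was also run on simulated data. Comparisons were LL, WL and LW with WW, LL with LW, LL with WL, the recipient genotype, and its interaction with marrow. For a gene below background in a group, the lowest signal that passes as above background was put in its place. Some probes that do not pass exceed that signal. RefSeq supplied the promoters.

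The 10 genes are all named. Pathway genes are named where called in a comparison, up to 8 each by size, or, where none was, the 2 of smallest p; Erbb4, Nrg1 and Adam17 always (1 gene that the rule names is not reported here); and the 3 genes most like each of Hbegf, Areg, Ereg and Egfr. Members and lists were chosen with earlier results of these data known. Alternatives were normexp background correction with an offset of 50, quantile scaling, a percentile over detected probes, the deposited table, other filters, the mean of probes or each probe alone, a replicate block, the compared arrays alone, a different variance model, and fits with arrays left out. Figures used Python 3.11.15 and matplotlib 3.10.9.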

Additional observations from a re-analysis of the deposited data

Results flagged for a closer look

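A second Btc probe, at chr5:91788031-91788090 of mm9, was left out of the tests because it was not above background on both arrays of any group. On LW replicate 2 it was well above background, with a relative signal of -3.08, while the other 7 arrays lay between -7.49 and -6.61. The main Btc probe on that array was at -3.86, the highest of the 8 arrays. The same array was also the highest for Alb, a liver gene, at 3.84, against -5.80 to -1.43 on the others. The part of this in the Btc value was not tested.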

How the results depend on the processing

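The number of the 10 genes called in LL against WW was 0 with all arrays, and 3 without either WL array and with the compared arrays alone, and 0 to 3 when single arrays were left out. The comparison then rests on the spread of fewer arrays, and calls over all genes were 808 with all arrays, 8286 without the WL arrays, 6245 with the compared arrays alone and 4 to 8286 when single arrays were left out. For LL against LW the number was 0 with all arrays, 4 without either WL array and 3 with the compared arrays alone, and 0 to 4 when single arrays were left out. Leaving out single arrays gave 0 to 5 for WL against WW, 0 to 2 for LL against WL, 0 to 5 for the recipient genotype, 0 to 3 for the interaction and 0 to 0 for LW against WW. Without WL replicate 1, the mouse that resembled LW and WW, the 5 called in WL against WW and for the recipient genotype were Areg, Ereg, Hbegf, Egfr and Erbb3, where 37.7% and 48.4% of all genes were called. A group left with 1 mouse is assumed to vary like the others.

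The difference of LL from WW changed sign for Tgfa with the mean of probes (-0.068). It did so for Egf with quantile scaling (0.035), with the mean of probes (0.060), without LL replicate 1 (0.09) and without WW replicate 1 (0.13), and for Btc with quantile scaling (0.012). Egf ranged from -0.37 to 0.13 when single arrays were left out. Adam17 turned to -0.022 with the mean of probes. Egfr in WL against WW ran from -0.38 without WL replicate 2 to 1.19 without WL replicate 1. None of these was called in the reported fit. The cause was not tested, apart from the left-out mice.

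Of 471 values of 26 results on the 10 genes under an alternative, 427 kept direction and side of the threshold, 37 passed it newly, 0 lost a call (none of the 10 genes was called in the reported fit) and 7 changed sign. Leaving out single arrays gave 0 to 33 called pathway genes in LL against WW. The replicate numbers do not pair the mice, as replicate differences correlated between groups at -0.10 to 0.19, and with the replicate block 0 of the 10 genes were called in each of the 7 comparisons. The median of all genes in LL against WW was 0.03, and -0.08 without the filter on dim probes. Ereg and Epgn are limited by signal over background: in WW neither Ereg array passed it.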
